A study of Mus musculus with 130 samples.

Results

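Genes whose symbols follow the pattern of a ribosomal protein (Rpl or Rps and a number), together with the copies named after them with the ending -ps, were followed across diets and mouse strains, with the Rps6k kinases left out. Of the 35711 genes of the panel table, 73 are such ribosomal protein genes, 43 for proteins of the large subunit and 30 for the small subunit. Another 289 are -ps copies, of which 276 are annotated as processed pseudogenes, 7 as transcribed processed pseudogenes and 6 as protein coding. The last 13 carry another suffix (Rpl36al, Rps27l, Rps3a2 and the like) and are called other copies here. The diet table holds 370 members among 35274 genes, with 284 of the 289 -ps copies and all of the other 2 kinds.

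The data are RNA-seq of the liver of 130 male mice, made from total RNA of a piece of the large lobe with a stranded mRNA kit. In the diet experiment, C57BL/6J mice received chow, 50 ppm iron, 500 ppm iron, 2% carbonyl iron (20000 ppm), or 2% carbonyl iron with cellulose, and 3 mice were sequenced on each diet; neither the age of the mice nor the length of these diets is given in the sources used here. The strain panel holds 115 libraries of 114 strains. Its mice were all kept on chow for 4 weeks and then on 2% iron for 6 weeks, so none was without iron loading. It covers 56 BXD strains (recombinant inbred strains from C57BL/6J and DBA/2J) and 20 AXB/BXA strains (from A/J and C57BL/6J). The rest are 4 BXH, 3 CXB and 31 other inbred strains. Each strain has 1 mouse apart from 129X1/SvJ, which has 2 mice that were averaged. The substrains AXB19, AXB19a and AXB19b, and likewise BXD48 and BXD48a, were each counted as a strain. A further BXD strain is labelled BXD24/TyJ-Cep290<rd16>/J.

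The cytoplasmic ribosome is built from ribosomal RNA and its ribosomal proteins, which assemble in the nucleolus into a small subunit that decodes the message and a large subunit that forms the peptide bond. The mRNAs of these proteins are among the most abundant of the cell and share a pyrimidine tract at their start through which growth signals set their translation. Being short and abundant, they have often been copied back into the genome by retroposition, which leaves intronless processed pseudogenes close in sequence to the parent's spliced mRNA. A short read from such an mRNA can then fit the parent and several copies alike, and a program such as kallisto, named in the submitters' processing notes, divides it among the transcripts by estimation.

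How close the copies are to their parents is shown here by 90 bases of the coding part of 5 parents and the same stretch of 6 copies that were high in some strains and low in others. Letters are lower case, and capitals mark the positions at which a copy and its parent differ. Positions are counted from 1 at the A of the parent's start codon, and a token such as T132C gives the parent's base, the position and the copy's base. Coordinates are those of GRCm38 (mm10) with the GENCODE M21 annotation, and all sequences come from the transcripts of that release.

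Rpl34 (large subunit; gene at chr3:130726831-130730398, minus strand) and Rpl34-ps1 (bases at chr6:71124711-71124800, plus strand) differ at 2 of 354 positions, T132C and C318G. The 90 bases from position 102 are:
Rpl34: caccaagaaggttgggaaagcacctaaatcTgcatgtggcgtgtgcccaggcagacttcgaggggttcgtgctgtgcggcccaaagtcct
Rpl34-ps1: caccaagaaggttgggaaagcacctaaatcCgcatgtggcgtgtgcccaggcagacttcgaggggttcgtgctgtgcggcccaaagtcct

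Rps3a1 (small subunit; gene at chr3:86137940-86142702, minus strand) has 2 copies with a suffix of their own. Rps3a2 (bases at chr14:88123534-88123623, minus strand) differs at T216C, T534C, A645T and T668C, and Rps3a3 (bases at chr13:108670788-108670877, plus strand) at 9 positions that include T216C and T534C. The 90 bases that end at position 275 are:
Rps3a1: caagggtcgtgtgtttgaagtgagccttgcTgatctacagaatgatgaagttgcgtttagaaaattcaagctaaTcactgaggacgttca
Rps3a2: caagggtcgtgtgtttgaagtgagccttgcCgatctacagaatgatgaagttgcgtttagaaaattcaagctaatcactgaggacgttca
Rps3a3: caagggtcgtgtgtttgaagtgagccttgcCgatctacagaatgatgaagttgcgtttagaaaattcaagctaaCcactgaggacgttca

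Rpl3, the protein of the large subunit next to the peptidyl transferase centre, has its gene at chr15:80077791-80091868 on the minus strand. Rpl3-ps1 (bases at chrX:13202598-13202687, plus strand) differs from it at C57A and T786C alone over 1210 bases of transcript. The 90 bases from position 27 are:
Rpl3: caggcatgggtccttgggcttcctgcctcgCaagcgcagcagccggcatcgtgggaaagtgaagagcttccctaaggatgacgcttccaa
Rpl3-ps1: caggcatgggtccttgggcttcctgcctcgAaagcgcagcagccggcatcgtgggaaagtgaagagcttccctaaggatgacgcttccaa

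Rps2 (small subunit; gene at chr17:24718116-24721929, plus strand) and Rps2-ps13 (bases at chrX:52898617-52898706, plus strand) differ at 7 of 882 positions, all of them the third base of a codon. The 90 bases from position 30 are:
Rps2: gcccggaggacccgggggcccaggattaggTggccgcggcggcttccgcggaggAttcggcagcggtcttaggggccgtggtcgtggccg
Rps2-ps13: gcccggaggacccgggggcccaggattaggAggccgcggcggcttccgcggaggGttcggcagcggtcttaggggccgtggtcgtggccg

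Rps15a (small subunit; gene at chr7:118104372-118116188, minus strand) and Rps15a-ps8 (bases at chr4:53791367-53791456, minus strand) are the most distant of these pairs, with 30 mismatches, 12 of them in the stretch shown. The 90 bases from position 1 are:
Rps15a: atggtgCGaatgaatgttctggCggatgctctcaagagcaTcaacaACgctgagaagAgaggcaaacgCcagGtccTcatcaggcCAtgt
Rps15a-ps8: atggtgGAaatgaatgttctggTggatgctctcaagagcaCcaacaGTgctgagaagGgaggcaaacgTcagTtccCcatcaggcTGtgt

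Sequence and level went together among the -ps copies. Of the 289, 31 had a mean of at least 1 CPM (each count relative to its library total, with TMM scaling factors) over the strains. These 31 had a median identity of 99.7% with the coding part of their parent, and 29 of them were at 98% or more. The 258 copies under 1 CPM had a median identity of 95.3%, over those that could be aligned, and 66 were at 98% or more. Cut into words of 31 bases, 16 of the 31 higher copies held no word that was theirs alone among the annotated transcripts, and a median of 89.8% of their words were also in the parent, against 26.9% in the lower copies. Mismatches were also placed differently: in the 26 higher -ps copies that align without gaps, 72 of 85 mismatches (84.7%) lay at the third base of a codon, which often leaves the amino acid as it is. In the 108 gap-free -ps copies under 1 CPM the figure was 611 of 1178 (51.9%). Of the 85 mismatches, 40 came from Rpl36a-ps3, with 35 of these at base 3 of a codon. Rpl36al differs from Rpl36a at 39 positions, 35 of them at base 3. No word of Rpl36a-ps3 was in Rpl36a, while 89.3% were in other genes, and another parent was not tested for it. Rpl35a-ps2, -ps3, -ps4 and -ps6, which have the same value in every strain, were counted separately, with 1 mismatch each. The comparisons of higher and lower copies are descriptions, since copies of 1 parent share their origin.

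A pair of libraries has to be set out before the values. The 500 ppm library titled KMC019 (C57BL/6J) is called replicate 2 here. For most genes, it and the panel library labelled BXD19/TyJ differed by less than the noise of counting. Over the genes with at least 20 counts in a pair of libraries, the median chi-square contribution per gene was 0.0178 between these 2, against 0.4549 for independent counts and 1.076 for the next closest of 8385 pairs of libraries. Of 9690 genes with at least 200 counts, 96% agreed within 5%. They were also the deepest library of each table, at 20.4 M and 20.6 M counts (M, mega), where the next deepest had 14.2 M and 15.4 M. The 2 libraries carry different strain names, and which label their RNA belongs to was not tested. The tests between diets were therefore repeated without the 500 ppm library. The test of BXD against AXB/BXA strains, the correlations of copies with parents and the median SDs over strains were repeated without BXD19/TyJ. The clusters, the levels and the ratios of SDs were computed only with both libraries included.

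The same 2 libraries stood between the strains in the division of reads between parent and copy. Rpl34 took 74.4% of the counts of Rpl34 and its copies in the 500 ppm library and 74.2% in BXD19/TyJ, while each of the other 128 libraries was at or below 57.96% or at or above 98.5%. For Rpl21 the shares were 58.9% and 58.3%, against at most 48.1% or at least 85.4% in the others. The other 15 C57BL/6J libraries were at 98.5% to 100% for Rpl34 and at 85.4% to 95.3% for Rpl21. Of the other 55 BXD libraries, none lay between 56.74% and 99.41% for Rpl34 or between 48.05% and 86.17% for Rpl21. In replicate 2 of the 500 ppm group, Rpl34-ps1 was at 16.1 CPM and Rpl3-ps1 at 10.7 CPM, where the other 14 diet mice reached at most 0.662 and 1.45 CPM. Rps18 and Rps3a2 were within the range of those 14 mice. Not all values of the 2 libraries were alike. Rpl3-ps1 was at 18.2 CPM in BXD19/TyJ. Gm11361, a copy of Rps18 named outside the rule, was at 2.76 CPM in the 500 ppm library and 9.44 CPM in BXD19/TyJ. Rpl35a took 89.2% of the counts of Rpl35a and its copies in the 500 ppm library and 96.8% in BXD19/TyJ.

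Levels were compared between genes as TPM, which takes out transcript length. The ribosomal protein genes had a median of 286 TPM over the strains. Rpl41, a peptide of the large subunit, was highest at a mean of 732 TPM (513 to 1685 over strains), followed by Rpl10, which joins the large subunit late in its maturation, at 616 TPM and Rps29 at 540 TPM. Rpl12 was lowest at 59.5 TPM (27.3 to 148), next to Rpl35 at 77.9 TPM and Rpl27 at 82.8 TPM. In each of these families, copies matched by sequence held most of the counts of parent and copies together. Their share was 70.7% for Rpl12, 71.1% for Rpl35 and 58.5% for Rpl27. These low values are therefore of the reads given to the parent, and the part of that division in them was not tested. The median -ps copy was at 0.0952 TPM, but the highest, Rpl28-ps1, reached 236 TPM, close to the median ribosomal protein gene. Summed over members, the 73 genes had 9680 CPM on average, the 289 copies 518 CPM and the 13 other copies 216 CPM.

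The counts of the copies lay in few of them. A mean of at least 10 CPM was reached by 14 of the 289, and 22 had no count in any panel library. For 65 there was none in the diet libraries. The 5 highest were Rps2-ps10 (mean 62.3 CPM), Rps6-ps4 (52.1 CPM), Rpl28-ps1 (49.7 CPM), Rpl17-ps3 (48.7 CPM) and Rps12-ps3 (40.1 CPM). Rps6-ps4, Rpl28-ps1 and Rps12-ps3 are identical to their parents over the whole aligned coding part, so a read from there cannot be given to one or the other. Of the 13 other copies, 9 passed the filter on low counts in the panel, and Rpl36al (62.5 CPM) and Rps27l (55.8 CPM), which encode proteins of their own, were the highest. Rpl7l1 followed at 39.4 CPM, Rpl22l1 at 22.6 CPM, Rps3a2 at 20.0 CPM, Rps3a3 at 9.18 CPM, Rps4l at 5.56 CPM, Rps12l1 at 0.752 CPM and Rpl6l at 0.163 CPM.

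The levels of 12 of the 73 ribosomal protein genes split the 114 strains into 2 separate clusters. The clusters were found by a mixture of 2 normal distributions on log2 CPM with a set minimum for their separation (Ashman's D above 3), and since the values chose the genes, they are described without a test. The rule was run on the members alone, so the share of all genes that split in this way is not known. Of the 12, 11 are described here. Rps18, of the head of the small subunit, was low in 67 strains, at 18.5 to 86.1 CPM with a median of 40.8 CPM, and high in 47, at 114 to 258 CPM with a median of 164 CPM. No strain lay between 86.1 and 114 CPM.

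**Figure D1:**
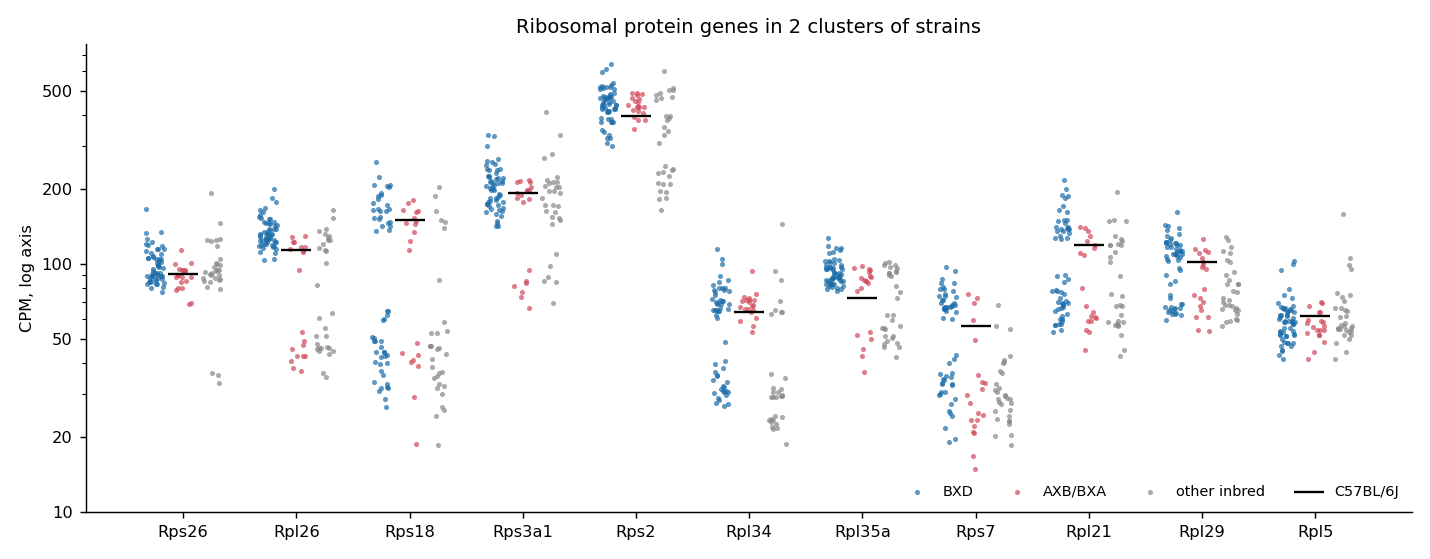
CPM (log axis) of 11 ribosomal protein genes in 2 clusters, with 1 point per strain coloured by family and a bar at the panel's C57BL/6J mouse; the 4 BXH and 3 CXB strains are left out. Rps18 and Rpl26 show an empty band between 2 clouds of strains, and C57BL/6J lies in the upper cloud of each gene shown but Rpl5.

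For the other 10, the ratio between the high and the low median was smaller. The median CPM of the low and the high strains was 29.1 and 69.6 for Rps7 (72 low strains), 29.9 and 71.1 for Rpl34 (46 low), 45.7 and 128 for Rpl26 (30 low) and 62.2 and 137 for Rpl21 (61 low). For Rps3a1 it was 84.3 and 201 (13 low), for Rps2 213 and 440 (16 low), for Rpl29 66.8 and 111 (53 low) and for Rpl35a 51.02 and 91.6 (25 low). Rps26 was low in 3 strains alone (NON/ShiLtJ, KK/HlJ and BUB/BnJ, at 32.99 to 36.2 CPM), and Rpl5 was high in 8 (median 101 CPM, against 56.7 CPM). C57BL/6J, the strain of the reference genome, was in the high cluster for 11 of the 12 genes, all but Rpl5. DBA/2J was in it for 5 and A/J for 3.

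For 11 of the 12 genes, the matched copy with the most counts had a higher median in the strains low in the parent than in the others. For Rpl5 it was the reverse, with Gm15500 at a median of 162 CPM in the strains low in Rpl5 and 242 CPM in the high ones. Rpl34-ps1 ran from 22.3 to 57.3 CPM in the 46 strains low in Rpl34, and from 0 to 16.7 CPM in the others, the 16.7 CPM in the library labelled BXD19/TyJ. Rps3a2 ran from 31.6 to 80.4 CPM in the 13 strains low in Rps3a1, but it was also up to 62.4 CPM among the strains where Rps3a1 was high, so the 2 sets of strains overlap for that copy.

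**Figure D2:**
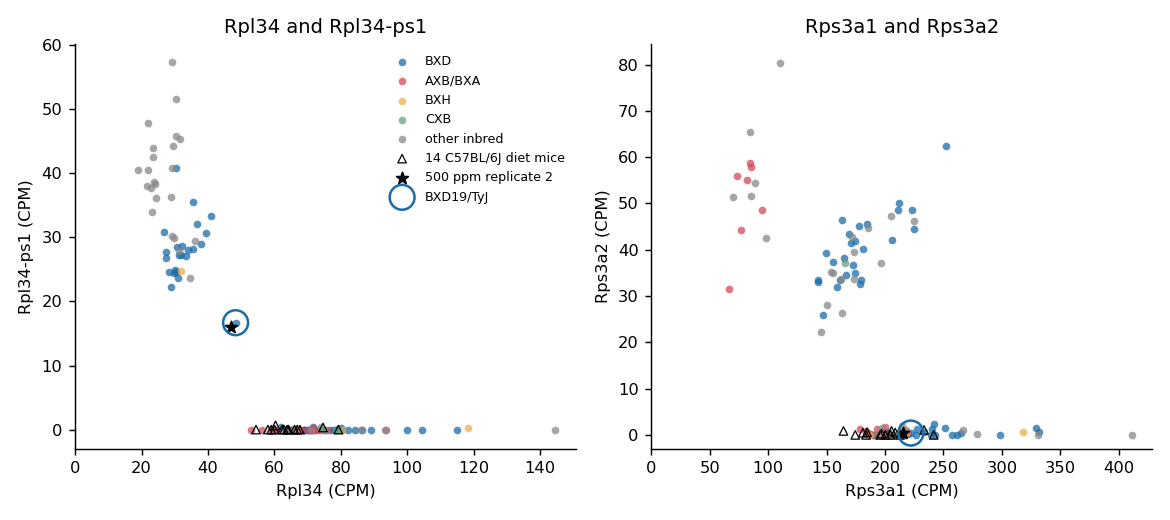
CPM of a copy (vertical axis) against CPM of its parent (horizontal axis) for Rpl34 with Rpl34-ps1 and Rps3a1 with Rps3a2, 1 point per panel strain, with triangles for 14 C57BL/6J diet mice, a star for replicate 2 of the 500 ppm group and a ring around BXD19/TyJ. Strains low in Rpl34 have 22.3 to 57.3 CPM of its copy, the 14 diet mice sit on or near the horizontal axis, and the star falls inside the ring, apart from both clouds of Rpl34.

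Adding the counts of parent and copies removed most of the split. For this, each ribosomal protein gene was summed with every annotated gene that matched its coding part at 90% identity or more over at least 80% of its length, 937 genes in all, of which 218 are members and 719 carry names outside the rule. Rps7 with its copies had a median of 150.5 CPM in the strains low in Rps7 and 151 CPM in the high ones. The medians were 143 and 149 CPM for Rpl21, 220 and 214 CPM for Rps3a1 and 94.3 and 94.2 CPM for Rps26. A difference was left for Rpl26 (102 and 129 CPM), Rpl34 (61.8 and 71.1 CPM), Rpl29 (89.7 and 116 CPM) and Rpl5 (218 and 347 CPM). One was also left for Rpl35a (82.8 and 92.1 CPM). For Rps18 (197 and 176 CPM) and Rps2 (540 and 482 CPM) it went the other way.

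The spread between strains fell accordingly. The SD of log2 CPM over 114 strains was 1.07 for Rps18 alone and 0.30 for the sum, 0.71 and 0.23 for Rps7, and 0.70 and 0.25 for both Rpl34 and Rpl26. Over the 12 genes the median SD was 0.55 alone and 0.24 summed. Over the 61 others it was 0.25 alone and 0.24 summed, and 58 of the 73 genes had a lower SD when summed. Without BXD19/TyJ the medians of the 12 genes were 0.55 and 0.24.

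**Figure D3:**
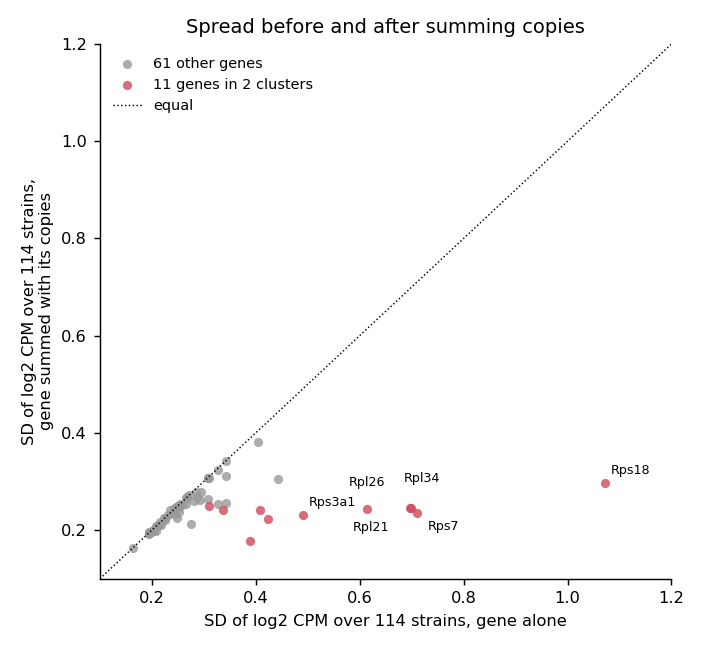
SD of log2 CPM over 114 strains of 72 of the 73 ribosomal protein genes, each summed with its matched copies (vertical axis), against the SD of the gene alone (horizontal axis), with red points for 11 genes in 2 clusters. Rps18 moves from 1.07 on the horizontal axis to 0.30 on the vertical axis, and most of the 61 grey points stay near the dotted line of equal values, with Rps12 (0.44 alone and 0.31 summed) the farthest below it.

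For comparison with the spread within groups, each gene's SD over strains was divided by its SD among mice of 1 diet. The median ratio was 1.92 for the ribosomal protein genes and 1.65 over the 13410 genes that passed the filter in both tables. It was above 1 for all 73 ribosomal protein genes, but also for 93.6% of the 13410 genes. Of the 26 -ps copies among these, 21 had a ratio above 1. The median SD over strains was 0.25 for the 73 genes, 0.35 over all genes and 1.65 for the 26 -ps copies that passed both filters. These copies are lower in level, and their SD within a diet was also larger (median 0.53, against 0.14 for the 73 genes).

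Clusters were also found for 32 of the 51 -ps copies and 3 of the 9 other copies that passed the filter on low counts in the panel. Some were all but absent outside a few strains: Rps2-ps13 was at 255 to 436 CPM in 6 strains (KK/HlJ, BUB/BnJ, SWR/J, RIIIS/J, LG/J and NZB/BlNJ) and at most 1.87 CPM in the other 108. Rps24-ps3 was at 24.9 to 35.1 CPM in NOD/ShiLtJ, SWR/J and NOR/LtJ, and at most 0.448 CPM elsewhere. Rps19-ps6 was at 25.3 to 36.6 CPM in 5 strains (NOD/ShiLtJ, C58/J, SJL/J, BUB/BnJ and NOR/LtJ) and at most 0.465 CPM in the remaining 109. None of these 3 copies was in its high cluster in any BXD, AXB/BXA, BXH or CXB strain.

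Other copies split the recombinant families. Rpl3-ps1 was high in 70 strains, at 18.2 to 110 CPM, among them DBA/2J and A/J but not C57BL/6J, with 34 of the 56 BXD and 7 of the 20 AXB/BXA strains. It had the largest spread of all copies with a mean of at least 1 CPM (SD of log2 CPM 3.88), ahead of Rpl34-ps1 (3.74), Rpl10a-ps1 (2.69), Rps12-ps4 (2.61) and Rps2-ps13 (2.52). Rpl34-ps1 was high in 47 strains, in 23 of the BXD and none of the AXB/BXA strains. Its A/J and C57BL/6J values were both 0 CPM, while DBA/2J had 30.2 CPM. Rps3a3 was high in 14 strains, of which 7 are AXB/BXA strains and none is a BXD strain. Rps15a-ps8, the most distant of the copies shown, with 232 words of 31 bases of its own, was high in 36 strains at a median of 4.17 CPM, in 27 BXD strains and in no AXB/BXA strain.

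Copies and parents were also compared across the 114 strains where neither fell into clusters. Of 51 pairs of a -ps copy that passed the filter and its named parent, 38 had a clustered member and were given no correlation. Of the other 13, 9 had a Benjamini-Hochberg adjusted permutation p under 0.05 for Pearson's r (log2 CPM, 100000 permutations, two-sided), 7 of them positive. By Spearman's rho 7 were called. Rpl28-ps1 with Rpl28 had r = 0.751 and rho = 0.664, each with an adjusted permutation p of 4.3e-05 from a raw p of 1e-05, the smallest that 100000 permutations can give. Without the 2 strains farthest from the median of Rpl28 r was 0.713, and it was 0.778 within BXD, 0.610 within AXB/BXA and 0.739 within the other inbred strains.

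Rps23-ps1 (r = 0.505, rho = 0.418) and Rpl36a-ps2 (r = 0.471, rho = 0.412) were also positive, with r of 0.419 and 0.418 without the 2 farthest strains. Rpl17-ps3 had r = 0.363 and rho = 0.543, with r of 0.622 within BXD and 0.350 without the 2 farthest strains. Rpl27-ps3 had r = 0.367 and rho = 0.245. Its r was 0.249 within BXD (adjusted permutation p = 0.104) and 0.0114 within AXB/BXA, so it did not pass within those families. Rps12-ps3 went the other way, with r = -0.356 and rho = -0.430 (adjusted permutation p = 2.86e-04 for r), and r was -0.398 without the 2 farthest strains, -0.427 within BXD, -0.562 within AXB/BXA and -0.239 within the other inbred strains. The other negative relation, Rps13-ps1 with Rps13, had r = -0.255 but rho = 0.101. Its r was -0.135 without the 2 farthest strains, which was not called, and it was reversed within BXD (0.336, adjusted permutation p = 0.0242), so the pooled r does not hold there. By Pearson's r, none of the 13 relations passed within the 20 AXB/BXA strains alone, 6 did within BXD and 8 within the other inbred strains. By Spearman's rho, 0 passed within AXB/BXA, 6 within BXD and only 1, Rpl28-ps1, within the other inbred strains. Leaving out BXD19/TyJ left 9 by r and 7 by rho. All of these share library depth and the ambiguous reads of the pair.

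In the diet mice, no ribosomal protein gene passed the test for a difference between 2% iron and 50 ppm. None of the 73 was called (edgeR's quasi-likelihood test with Benjamini-Hochberg adjustment over all 13560 genes tested, adjusted p under 0.05), while 15.7% of all genes tested were called in that comparison. At an unadjusted p under 0.05 there was 1 of the 73, and DESeq2 and limma on log2(TPM + 1) also called 0. The median log2 difference was -0.00, beside 0.01 over all genes, and single genes ran from -0.18 (Rps7) to 0.64 (Rps12, SE 0.26, adjusted p = 0.107 in edgeR's test). Rps12 is identical in its coding part to Rps12-ps3, which varied widely within groups. Rps12-ps3 was at 48.3, 50.5 and 20.1 CPM on 50 ppm and 12.2, 48.04 and 26.3 CPM on 2% iron, with Rps12 at 45.8, 56.7 and 80.05 CPM and at 132, 73.5 and 79.3 CPM. Of these 6 mice, the one lowest in Rps12-ps3 was the highest in Rps12, and the groups overlap for both genes.

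Of the 289 -ps copies, 27 passed the filter on low counts in the diet table, and 1 of them was called on 2% iron against 50 ppm. Rps2-ps10 was at 4.45, 2.70 and 3.48 CPM on 50 ppm and at 4.06, 8.08 and 8.69 CPM on 2% iron. Of the mice on 2% iron, 1 lay within the range of the 50 ppm mice. The log2 difference was 0.97 (SE 0.30, adjusted p = 0.0439 in edgeR's quasi-likelihood test with Benjamini-Hochberg adjustment), and no copy was called in the fit of the 2 groups alone. Rps2-ps10 was not called without replicate 2 or replicate 3 of the 2% group or without any single 50 ppm mouse, that is in 5 of the 6 fits that leave out 1 mouse of these groups, with adjusted p from 0.0588 to 0.161 in edgeR's test. Of the 13 genes with another suffix, 5 passed the filter and none was called.

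On the 2% diet with cellulose, 14 of the 73 ribosomal protein genes were higher than on chow and none was lower. All genes tested were called higher in 17.7% of cases in this comparison, so the 14 of 73 (19.2%) is near the background. The labels give no further composition of chow, so iron, cellulose and the rest of the diet cannot be told apart. Of the 14, 8 are proteins of the small subunit (of 30) and 6 of the large subunit (of 43). The median log2 difference of the 73 genes was 0.21 and that of all genes was 0.00, with 71 of the 73 above 0.

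Rpl3 was at 175.18, 186.15 and 176.51 CPM on chow and at 298.60, 290.95 and 255.98 CPM on the 2% diet with cellulose. The groups did not overlap, and the log2 difference was 0.65 (SE 0.09, adjusted p = 1.72e-04 in edgeR's quasi-likelihood test with Benjamini-Hochberg adjustment). Rps28, of the small subunit, was at 51.6, 54.01 and 46.9 CPM on chow and at 79.8, 71.02 and 60.99 CPM with 2% iron and cellulose, again without overlap (log2 difference 0.48, SE 0.12, adjusted p = 0.00831 in edgeR's test). Rpl3 and Rps28 kept an adjusted p under 0.05 in each of the 16 alternatives tried. A further 11 were Rpl10a, Rpl23, Rps19, Rpl12, Rpl23a, Rps6, Rpl14, Rps9, Rps15a, Rps18 and Rps20, from 0.44 for Rpl10a down to 0.32 for Rps20.

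The count of genes called depended on single mice and on scaling. It was 2 (Rpl3 and Rps28) without replicate 1 of the cellulose group, 9 without its replicate 2 and 28 without its replicate 3, and 6 without chow replicate 1 or chow replicate 3. Scaled to library totals alone, 63 of the 73 were called, and the median of all genes was then 0.20 and that of the 73 genes 0.41, so the distance between the 2 medians was 0.21 as before. Without the library labelled 500 ppm replicate 2 the count was 14.

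**Figure D4:**
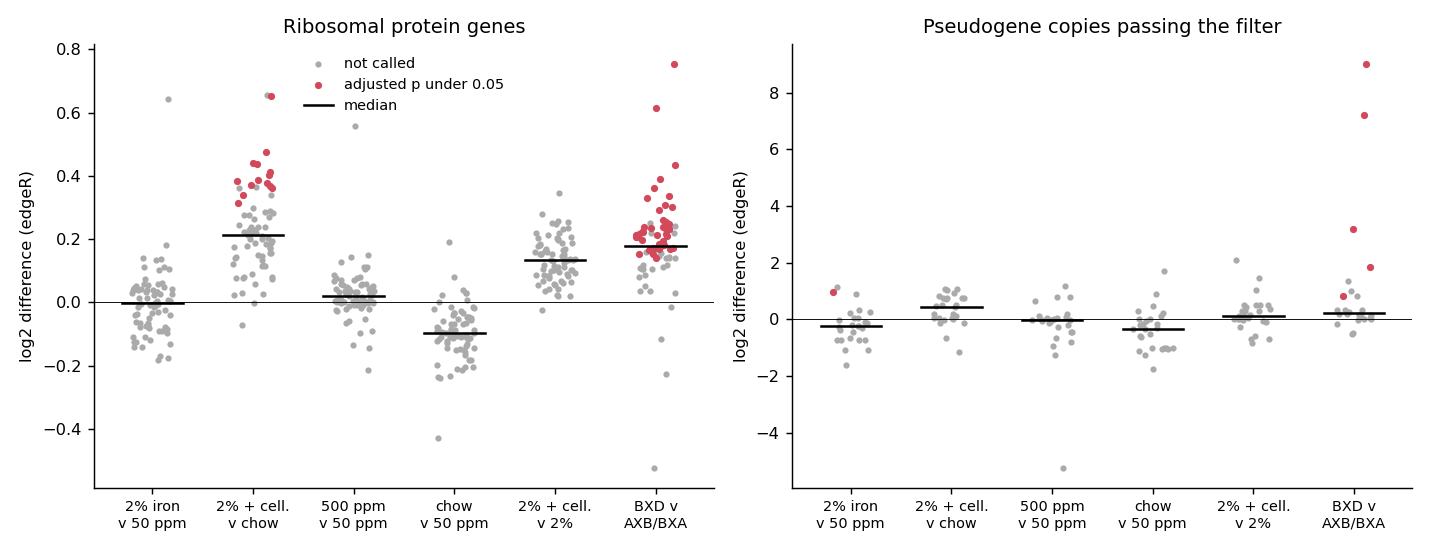
Log2 differences from edgeR for the 73 ribosomal protein genes (left) and the -ps copies that passed the filter (right, on a wider axis) in 5 diet comparisons and in BXD against AXB/BXA, with 1 point per gene, red for adjusted p under 0.05 and a bar at the median. Red points appear for the 2% diet with cellulose against chow (14 genes, median 0.21) and for the strain families (43 genes, median 0.18), and 1 copy is red on 2% iron against 50 ppm.

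The remaining diet comparisons called no ribosomal protein gene and no copy. On 500 ppm against 50 ppm 0 of all genes were called (0%), with a median of 0.02 for the 73 genes and 1 of them at an unadjusted p under 0.05. On chow against 50 ppm 0.391% of all genes were called, the median of the 73 genes was -0.10 and 3 were at an unadjusted p under 0.05, Rps7 furthest at -0.43 (adjusted p = 0.270 in edgeR's test). For the 2% diet with cellulose against the 2% diet 0.0811% of all genes were called. The median of the 73 genes there was 0.13 with 72 of them above 0, 2 had an unadjusted p under 0.05, and DESeq2 called Rpl3 alone. The shares of all genes above 0 or at an unadjusted p under 0.05 are not given here. Such counts of the 73 genes are therefore descriptions without a background. The difference between the 2 iron contrasts, 2% with cellulose against chow and 2% against 50 ppm, was tested as an interaction: 0.265% of all genes were called and none of the 73 (lowest adjusted p = 0.106 for Rpl3 in edgeR's test, at a difference of 0.55). The interaction was tested after the data had been seen.

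Other genes of the translation machinery were counted in the same fits. On 2% iron against 50 ppm none of 7 ribosomal proteins outside the symbol rule (such as Rplp0, Rpsa and Rack1) and none of 7 elongation factors and similar mRNAs with a pyrimidine tract was called, against 3 of 25 genes of ribosome assembly, all higher. Of 79 mitochondrial ribosomal proteins, which are encoded by their own set of genes, 12 were called, all lower. Over all genes tested, 8.52% were called higher and 7.17% lower in that comparison, and 15.2% of the mitochondrial list was called lower. With cellulose against chow the first 2 lists again had 0 called, ribosome assembly had 6 higher and 2 lower, and of the mitochondrial ribosomal proteins 1 was higher and 31 were lower, where 17.4% of all genes tested were called lower. Among the assembly genes higher with cellulose were Myc, a transcription factor for ribosome production (log2 difference 1.43), and Npm1, a nucleolar chaperone (0.46); both were picked out after their values were seen.

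Summed over the 73 genes, ribosomal protein mRNA took 0.771%, 0.768% and 0.758% of all counts in the chow mice. Its mean was 0.766% ± 0.00657 (SD, n = 3) on chow, 0.863% ± 0.0485 on 50 ppm, 0.878% ± 0.0536 on 500 ppm, 0.885% ± 0.113 on 2% iron and 1.02% ± 0.116 on 2% iron with cellulose. The cellulose mice (0.928% to 1.15%) lay above all chow mice (0.758% to 0.771%), with a two-sided exact permutation p of 0.1, the smallest that 3 against 3 mice can give. On 2% iron the range of 0.774% to 0.9997% overlapped that of 50 ppm (0.809% to 0.903%), with an exact permutation p of 0.9. The -ps copies took 0.0328% on chow and 0.0413% with cellulose, 0.0393% on 50 ppm and 0.0350% on 2% iron (exact permutation p = 0.1 for each pair).

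Markers of other cells moved with the iron-loaded groups. The summed level of 7 macrophage markers was 140.8 to 181 CPM on chow and 124 to 226 CPM on 50 ppm, against 526.9 to 564 CPM on 2% iron and 543 to 849 CPM with cellulose, and all 7 were called higher in both iron comparisons. The erythroid list ran from 96.4 to 121 CPM on chow and from 70.2 to 103 CPM on 50 ppm, against 324 to 486 CPM on 2% iron and 169 to 469 CPM with cellulose, with 4 of 6 genes called higher and 1 lower. The sum of 4 endothelial markers was 180 to 197 CPM on chow and 160 to 219 CPM on 50 ppm, against 279 to 298 CPM on 2% iron and 247 to 358.3 CPM with cellulose, with 2 of 4 called higher in each iron comparison. The 4 stellate markers summed to 106 to 124 CPM on chow and 187 to 216 CPM with cellulose, with 2 called higher, while on 50 ppm (148 to 216 CPM) and 2% iron (170 to 241 CPM) the groups overlapped and none was called. Of the lymphocyte list none was called in either comparison. The exocrine pancreas list reached at most 0.691 CPM, and Prss2, Cela3b, Cpa1 and Pnlip had a median of 0. Their part in the ribosomal protein values was not tested, and fewer cells of a type cannot be told apart from less RNA per cell in these bulk samples. The RNA is labelled as liver, and the 6 hepatocyte markers summed to 72580 to 87180 CPM on 50 ppm and 92570 to 100100 CPM on 2% iron, without overlap, although no single one was called higher and 2 were called lower. On chow the sum was 80340 to 89730 CPM and with cellulose 89540 to 97270 CPM, with 3 called lower.

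**Figure D5:**
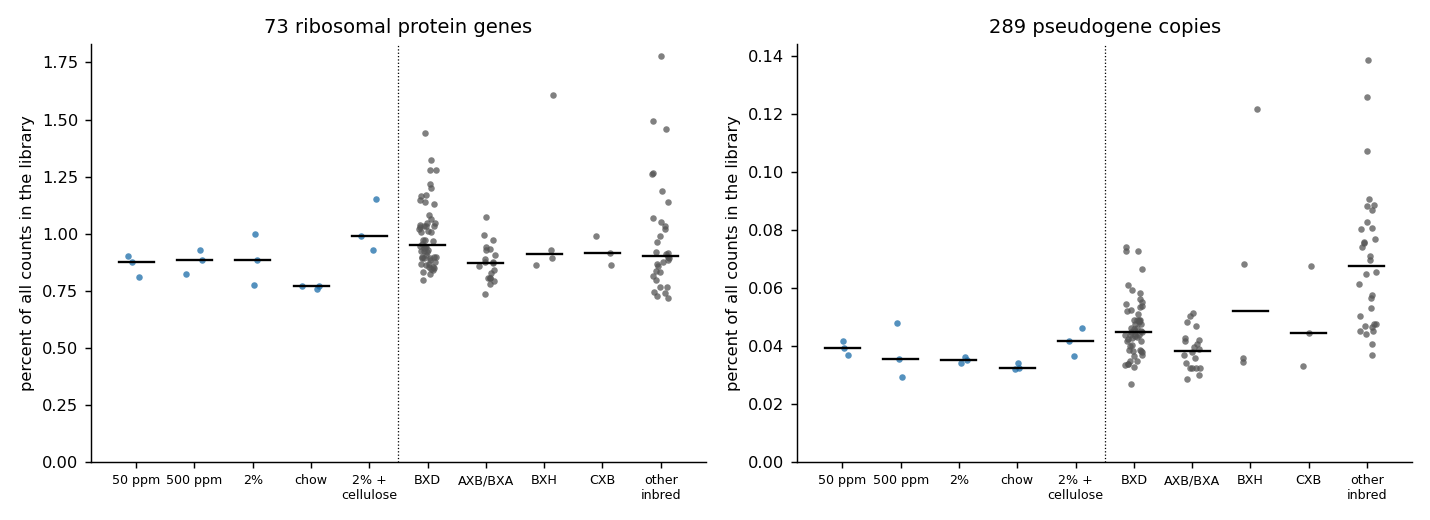
Percent of all counts of a library taken by the 73 ribosomal protein genes (left) and the 289 -ps copies (right), with 1 point per mouse in the diet groups (blue) and per library in the strain families (grey), and a bar at the median. Chow mice lie close together at 0.758% to 0.771% and the cellulose mice above them, while the panel reaches from 0.719% to 1.78%.

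The share of ribosomal protein mRNA varied more over the 115 panel libraries (SD 0.182) than over the 15 diet libraries (SD 0.108). It was lowest in NOD/ShiLtJ (0.719%), A/J (0.726%) and BXA13/PgnJ (0.734%) and highest in NZB/BlNJ (1.78%), BXH2/TyJ (1.61%) and FVB/NJ (1.49%). The median was 0.951% in the BXD strains (0.798% to 1.44%), 0.873% in the AXB/BXA strains (0.734% to 1.07%) and 0.902% among the other inbred libraries (0.719% to 1.78%). The 2 mice of 129X1/SvJ, the only strain with more than 1, were at 0.990% and 0.837%. With 1 mouse in each other strain, a difference between 2 single strains has no replicate check.

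Between the 2 recombinant families, 43 of the 73 ribosomal protein genes were higher in BXD than in AXB/BXA strains and none was lower. Of the 13794 genes tested, 6.62% were called higher (edgeR's quasi-likelihood test with Benjamini-Hochberg adjustment). The strain was the replicate, and the substrains of AXB19 and BXD48 were each counted as a strain. The 43 are 23 of 43 large-subunit and 20 of 30 small-subunit genes. The median log2 difference was 0.18, beside 0.01 over all genes. Of the 61 genes outside the clusters, 38 were called. The count was 51 when each gene was summed with its matched copies, 43 without BXD19/TyJ, and 33 without BXA11/PgnJ and BXA13/PgnJ.

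Rps14, of the platform of the small subunit, was at a median of 115 CPM in BXD (92.6 to 178) and of 85.9 CPM in AXB/BXA (62.8 to 127). The 2 ranges overlapped, with a log2 difference of 0.44 (SE 0.06, adjusted p = 1.70e-07 in edgeR's test). Rpl13a, which also has a known role outside the ribosome in the interferon response, differed by 0.36 (SE 0.08, adjusted p = 0.00116 in edgeR's test). Rpl26, Rps7 and Rps3a1 differed by 0.75, 0.61 and 0.39, and summed with their copies by 0.32, 0.18 and 0.16, with adjusted p from 5.17e-06 to 0.0435 in edgeR's test. All 56 BXD strains are in the high cluster of Rpl26 and Rps3a1, as against 10 and 13 of the 20 AXB/BXA strains.

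The erythroid markers had a median sum of 273 CPM in BXD (3.56 to 1948) and 111 CPM in AXB/BXA (4.36 to 712), with overlapping ranges. The macrophage sum was 503 and 436 CPM, and the stellate sum 159 and 144.7 CPM. Other lists were lower in BXD: endothelial (235.5 and 264.6 CPM), hepatocyte (96400 and 102600 CPM), lymphocyte (8.29 and 9.67 CPM) and exocrine pancreas (0.298 and 0.476 CPM). None of these sums was tested between the families, nor was their part in the difference of the ribosomal protein genes. Of 7 ribosomal proteins outside the symbol rule, 4 were higher and 1 (Rplp0) lower in BXD, and of 7 elongation factors and similar genes 5 were higher. Ribosome assembly had 1 higher and 1 lower of 25, and of 80 mitochondrial ribosomal proteins 3 were higher and 7 lower, where 5.02% of all genes tested were called lower.

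Of the 26 -ps copies that passed the filter in this fit, 5 were called, all higher in BXD. The filter bears on that direction: 4 of the 5 had a median of 0 CPM in AXB/BXA and passed through the BXD strains, the larger family, and a copy high in a few AXB/BXA strains alone does not pass. Without the filter 15 copies were called, 8 higher and 7 lower in BXD. Rpl34-ps1 was at 0 to 0.296 CPM in all AXB/BXA strains and at up to 40.8 CPM in BXD, with a BXD median of 0. Rps15a-ps8 reached 0.0780 CPM in AXB/BXA and 6.74 CPM in BXD, where its median was 0.0783 CPM. Their fitted log2 differences of 9.01 and 7.22 depend on how zero counts are handled and give no measure of size. Rps12-ps9 (log2 difference 3.18) and Rps15a-ps5 (1.84) had a median of 0 CPM in AXB/BXA, at up to 5.18 and 3.25 CPM there and 25.8 and 10.97 CPM in BXD. Rpl14-ps1, present in every strain, was at a median of 27.8 CPM in BXD (13.2 to 71.3) and 18.1 CPM in AXB/BXA (10.7 to 28.98), a log2 difference of 0.82 (SE 0.15, adjusted p = 6.96e-05 in edgeR's test). DESeq2 called 8 copies, of which 4 were lower in BXD: Rpl35a-ps2, -ps3, -ps4 and -ps6, which have the same value in every strain and were high in 25 strains, none of them BXD.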

How the data were processed

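Liver RNA-seq of 15 C57BL/6J mice on 5 diets (3 each) and of 115 mice of 114 iron-loaded strains was analysed. The authors deposited estimated counts (expected counts) per gene and TPM per gene for the same mice; kallisto 0.46 and mm10 are named per the submitters' processing notes, and the use of strand in counting is not given in the sources used here. Library totals were 10.4 to 20.4 M counts in the diet table and 9.41 to 20.6 M in the panel. The 2 tables were never tested together, and levels set across them are descriptive.

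Counts were rounded to whole numbers and tested with edgeR 4.0.16 in R 4.3.3 (TMM factors, filterByExpr, quasi-likelihood test, Benjamini-Hochberg over all genes tested, called under 0.05), with all 5 diets in 1 fit and the BXD and AXB/BXA strains in another. CPM is scaled with TMM factors, and log2 CPM has a prior count of 2. Summed shares were compared with two-sided exact permutation tests, whose smallest p for 3 against 3 mice is 0.1. Clusters of strains were found with a mixture of 2 normal distributions in Python 3.11.15 with scikit-learn 1.9.0 (Ashman's D above 3, BIC gain over 10, at least 3 strains each). Copies were matched to coding parts by BLAST (identity of at least 90% over at least 80% of the coding part, which makes up at least 50% of the copy's transcript). Symbols, coordinates and sequences come from GENCODE M21. The scripts were tested on simulated data. A few genes are counted in the totals but not reported here.

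Alternatives were RLE factors, library totals, no filter, the compared groups alone, a minimum of 10 counts per library, DESeq2 1.42.0, limma 3.58.1 on log2(TPM + 1) and log2(TPM + 0.1), each mouse left out in turn, and subsets of strains. Summing with copies, and leaving out 500 ppm replicate 2, BXD19/TyJ, or BXA11/PgnJ and BXA13/PgnJ, were chosen after seeing the data. Members, lists and tests were chosen with earlier results of these data known. Named are the 3 highest and 3 lowest genes by TPM, the other copies that passed, the largest called changes, the copies with the highest level, the members with the largest spread, up to 10 members in 2 clusters, and the 5 pairs with the largest absolute r; further names, such as the rest of the clustered genes and of the pairs, were chosen after their values were seen. Nothing in the labels says that the mice of a diet group came from separate litters or cages, so p-values measure the spread between these mice.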

Additional observations from a re-analysis of the deposited data

Results flagged for a closer look

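Among the 4 BXH strains, BXH2/TyJ lay far from the others in the share of counts taken by the 73 ribosomal protein genes, at 1.607% against 0.863% to 0.929% in the other 3. With the matched copies added it was again apart, at 1.891% against 0.984% to 1.046%. How often such a gap is met by chance is not given, since BXH2/TyJ was picked because it lay apart. Its summed erythroid markers were at 1319 CPM, the highest of the 4 strains. Their part in the share was not tested, and BXH2/TyJ was measured in a single mouse.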

How the results depend on the processing

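In the diet mice the count of ribosomal protein genes called for 2% iron with cellulose against chow, 14, became 63 with library totals only and 49 with limma on log2(TPM + 1) or log2(TPM + 0.1), and ran from 2 to 28 with 1 mouse left out. The count for 2% iron with cellulose against 2% iron went from 0 to 1 with DESeq2. Of the pseudogene copies, the 1 called for 2% iron against 50 ppm became 0 in the 2 groups alone and was 0 to 1 with 1 mouse left out; without replicate 3 of the 2% group the copy called was Rpl36a-ps3, which was lower, in place of Rps2-ps10. For 2% iron with cellulose against chow the count of copies, 0, was 2 with library totals only, in the 2 groups alone and with limma at either pseudocount, 1 with at least 10 counts in every library, and 0 to 1 with 1 mouse left out. The difference in summed share between 2% iron and 50 ppm, 0.0225 percentage points, reversed to -0.0346 without replicate 1 of the 2% group and to -0.00447 without replicate 1 of the 50 ppm group, and ran from -0.0346 to 0.0781. For cellulose against chow it was 0.193 to 0.305. In the panel the 5 copies called in BXD against AXB/BXA became 15 without a filter (8 higher, 7 lower), 2 with at least 10 counts in every library and 8 with DESeq2; the 9 related pairs became 0 in the AXB/BXA strains alone; and the ratio of the median SD of copies to that of ribosomal protein genes, 6.51, became 3.48 in the BXD strains alone. The cause of these changes was not tested, apart from fewer strains or genes where a setting leaves some out. The 191 other results for whole comparisons kept their direction and side of the threshold, and of the values of single named genes 84 lost the call and 0 reversed. Copies under about 1 CPM rest on few counts, and the tables do not show how reads shared with a parent were divided. No paired analysis was possible because the labels carry no replicate numbers, and the numbers used in the text do not come from them.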
